A study of Homo sapiens with 41 samples.

Results

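The HES and HEY genes examined here encode basic helix-loop-helix transcriptional repressors, and they were described together with the Notch receptors and the ligand JAG1. The 9 genes, HES1, HES4, HEY1, HEY2, HEYL, JAG1, NOTCH1, NOTCH2 and NOTCH3, were taken by symbol from the 58676 genes analysed, and 8 of them passed the filter on low counts that left 21629 genes. They were followed in T98G, an established human glioblastoma line that stops cycling when serum is withdrawn. All cells were first kept for 72 h in medium with no serum. The 0 min library comes from these starved cells, and the other libraries come from cells given medium with 20% fetal calf serum and lysed at steps of 10 min, the last at 400 min. For all 41 times a single library of total RNA without rRNA was made from the 1 line, so there are no replicates, and no culture left without serum was followed alongside.

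Notch receptors are cleaved when a ligand of the Jagged or Delta family on a neighbouring cell binds them. The last cut, by gamma-secretase, frees the intracellular part, which enters the nucleus and joins the DNA-binding protein RBPJ and a Mastermind protein to switch on target genes. HES and HEY genes are the best known of these targets in many tissues, and in the nervous system they hold back differentiation. HES1 protein also binds the HES1 promoter and represses it, and in mouse cells given serum this feedback makes Hes1 mRNA oscillate. HES1 can be induced by other signals as well, so its mRNA alone is no measure of Notch activity.

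The promoter of HES1 is shown because its binding sites for RBPJ and for HES1 itself are the textbook case of both kinds of control. The 250 bases before the start site in RefSeq (GRCh38.p14, chr3:194135898-194136147, plus strand, outside the annotated gene) are printed 5′ to 3′ on the next line. Capitals mark the RBPJ site (GTGGGAA), the N boxes (CACNAG) and the class C sites (CACGCG), each searched on both strands. N boxes and class C sites are motifs that HES proteins can bind.
HES1: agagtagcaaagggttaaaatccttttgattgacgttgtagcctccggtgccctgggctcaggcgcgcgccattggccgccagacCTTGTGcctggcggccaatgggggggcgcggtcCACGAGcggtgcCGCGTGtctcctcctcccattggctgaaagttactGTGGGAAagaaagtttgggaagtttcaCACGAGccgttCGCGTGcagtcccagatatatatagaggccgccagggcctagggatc

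This window holds 1 RBPJ site at -85 to -79 from the start, 3 N boxes at -165 to -160, -132 to -127 and -58 to -53, and 2 class C sites at -120 to -115 and -47 to -42. Of 35116 promoter windows of the same length, 5.43% hold the RBPJ letters, 32.0% an N box and 9.72% a class C site. RefSeq promoters were matched for 8 of the 9 genes, all but HEY1. Among these 8, the RBPJ letters were found in HES1, HES4, HEY2 and HEYL and not in the windows of JAG1, NOTCH1, NOTCH2 and NOTCH3. The 27 bases around each match are given to compare them, with the RBPJ letters in capitals. All are GRCh38.p14, each read on the strand that carries the letters.
HES1, chr3:194136053-194136079, plus strand: gaaagttactGTGGGAAagaaagtttg
HES4, chr1:1000158-1000184, minus strand: tggggcgagtGTGGGAAagaatgcgga
HEY2, chr6:125749409-125749435, minus strand: cagccgaggcGTGGGAAcgcggccgcg
HEYL, chr1:39639805-39639831, plus strand: ccgccgagccGTGGGAAggccctaggc

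In HES1 and HES4 the letters lie on the strand of the gene, -85 and -77 bases from the start. In HEY2 and HEYL they lie on the opposite strand, at -213 to -207 and -178 to -172. Positions count from the RefSeq start, which for HES4 and HEY2 is not the outermost GENCODE start, so the HES4 window overlaps the GENCODE gene and the HEY2 window lies inside it. The letters of an AP-1 site (TGANTCA, in 6.57% of all windows), a cyclic AMP response element (TGACGTCA, 1.65%), a TEAD site (GGAATG, 11.9%), an E box (CANNTG, 61.8%) and a CArG box, the site of serum response factor (1.16%), were found in none of the 8 windows. A match describes the letters only, and the absence of one says nothing of the factor.

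The libraries held 18206982 to 64948114 counts, with a median of 41773419. The count of each gene was divided by the size factor of its library, 0.447 to 1.60, and values below are such normalized counts unless raw counts are named. FOS, an immediate early gene, had 16477 at 30 min, against 238 at 0 min. Of the markers of glial and glioma cells, VIM, CD44 and EGFR were high (medians of 50281, 24812 and 6217), while GFAP and S100B had at most 6 raw counts and SOX2 at most 2 in any library. Markers of other cells were mixed. KDR (endothelium), RBFOX3 (neurons) and CDH1 (epithelium) had at most 2, 1 and 2 raw counts, CDH5, PTPRC and CD14 at most 15, 12 and 10, and EPCAM and PECAM1 at most 24 and 29. TUBB3 and SYP (neurons) had medians of 1967 and 48.6, KRT18 (epithelium) 2734 and CD68 (macrophages) 1723. In RNA from a whole culture, fewer expressing cells and less RNA per cell cannot be told apart.

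For each gene a smooth curve of time, a natural spline, was fitted in edgeR across all genes tested, and the curve at a time was compared with the curve at 0 min. A change was called at a Benjamini-Hochberg adjusted p below 0.01. The error comes from the spread of neighbouring libraries about the curve, so it says nothing of how a second culture would behave. At 30 min and again at 60 min, HES1, HEY1 and JAG1 were higher and no member was lower, against 1.71% of all genes higher and 0.342% lower at 30 min, and 5.15% higher and 1.23% lower at 60 min. At 120 min, 4 of the 8 were higher and none lower (13.6% and 6.76% of all genes). At 180 min, 4 were higher and HES1 alone was lower (18.0% of all genes higher and 13.6% lower). That time was chosen with the low of HES1 known, so the lower HES1 there is a description with no test. At 240 min, 5 were higher and HES1, still within that low, was lower (21.6% and 18.5%). At 400 min, 4 were higher and none lower (24.2% and 22.4%), with HES4, HEY1, NOTCH1 and NOTCH3 short of the threshold. Between 180 and 400 min, HES1 and NOTCH2 were higher at the later time and HEY1 and JAG1 lower (23.0% of all genes higher and 22.4% lower), where HES1 is given as a description with no test because 180 min was chosen with its low known. The median log2 change of the 8 was 1.12 at 120 min and 0.78 at 400 min, against 0.01 and -0.00 over all genes. For 400 min against 180 min it was -0.33, against -0.01 over all genes. The members were chosen with earlier results of these data known, so these medians are descriptions of the set. A change over the whole course was called for all 8, as it was for 75.5% of all genes. Autocorrelation between neighbouring libraries (Ljung–Box test) was called for 6 of the 8, all but NOTCH1 and NOTCH3, and for 60.9% of all genes.

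HES1 (ENSG00000114315.3, chr3:194136148-194138732, plus strand, GRCh38) rose first, fell below its starting level and then rose again. The first 3 libraries, up to 20 min, held 299, 195 and 300 counts, and the next 3, up to 50 min, held 876, 1468 and 3198. The peak spanned 60 and 70 min, with 4586 and 4447, and by 120 min the count was 747. It dropped to 152 by 160 min and 90.9 by 180 min, and was lowest in the 190 and 200 min libraries (58.9 and 61.5). All libraries from 160 to 280 min, at 58.9 to 183, lay below both the 0 and the 10 min library. From there the counts climbed, through 113 (240 min) and 262 (300 min), to a range of 372 to 426 in the last 6 libraries, all above the 0 min library.

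Against 0 min, the fitted log2 change of HES1 was positive early, with 1.37 ± 0.21 (SE) at 30 min, 3.94 ± 0.19 at 60 min and 1.36 ± 0.18 at 120 min. It then turned negative, with -1.69 ± 0.18 for 180 min and -1.25 ± 0.17 for 240 min, and ended at 0.74 ± 0.19 (400 min; edgeR, adjusted p 9.8e-04 or less for each). Because 180 min was chosen with the low of HES1 known, the p-values for that time are no test of the low. The 240 min contrast lies in the same low and was also chosen with earlier results known, so it is no independent test. The curve at 400 min was 2.43 ± 0.11 higher than at 180 min on the log2 scale. With the running mean of 3 libraries, the high lay at 70 min and the low at 200 min. The fall below the start rests on how that start is fixed. Without the 0 min library and with the curve carried back to 0 min, the change was -0.38 ± 0.40 for 180 min (adjusted p = 0.61, edgeR) and 0.06 ± 0.40 for 240 min (adjusted p = 0.95). Without that library but against the curve at 10 min, an alternative chosen after seeing the data, the same changes were -1.16 ± 0.20 and -0.72 ± 0.19 (adjusted p 6.3e-06 and 0.0014). The call for 30 min was lost with spike-in size factors (adjusted p = 0.011) and with windows of time (adjusted p = 0.016), and that for 120 min with windows (adjusted p = 0.021). The change for 180 min was also short of the threshold with evenly spaced knots (-0.83 ± 0.31, adjusted p = 0.026) and with windows of time (-0.77 ± 0.46, adjusted p = 0.18), as was that for 240 min (adjusted p = 0.15 and 0.14), and that for 400 min with spike-in size factors (adjusted p = 0.016) and with windows (adjusted p = 0.16).

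HEY1 (ENSG00000164683.16, chr8:79762371-79767857, minus strand) rose with HES1 but stayed high longer and did not dip. Its counts were 119 (0 min), 105 (10 min), 224 (30 min), 550 (50 min) and 777 (60 min). From 70 to 110 min it stood on a plateau of 819 to 890, with the highest value at 90 min. It was down to 523 by 140 min, 305 by 180 min and 217 by 200 min, and from 240 to 400 min all libraries lay between 139 and 175, above the 0 and 10 min libraries. The log2 change was called up to 240 min, with 0.96 ± 0.16 (30 min), 2.61 ± 0.14 (60 min), 2.68 ± 0.14 (120 min), 1.34 ± 0.14 (180 min) and 0.64 ± 0.13 (240 min; edgeR, adjusted p 8.3e-05 or less for each). For 400 min it was 0.43 ± 0.15 and missed the threshold (adjusted p = 0.011). Against 180 min, the curve at 400 min was lower by 0.91 (log2 change -0.91 ± 0.07, adjusted p = 1.9e-14). The call at 30 min was lost without the 0 min library when the curve was carried back (adjusted p = 0.017) and with spike-in size factors (adjusted p = 0.27), and that at 240 min with spike-in size factors (adjusted p = 0.026) and windows of time (adjusted p = 0.054). The change at 400 min was called with evenly spaced knots (adjusted p = 8.2e-05), with 9 degrees of freedom (adjusted p = 0.0095) and against 10 min without the 0 min library (adjusted p = 0.0049).

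Both genes rose at nearly the same time, and their counts came down at different rates. The running mean of HES1 crossed the midpoint between its start and its peak at 43.3 min, and that of HEY1 did so at 47.0 min, less than 1 sampling step of 10 min apart. HES1 came back through its midpoint at 93.8 min and HEY1 at 146 min, so HES1 was above it for 50.6 min and HEY1 for 99.0 min. An exponential through the libraries after the peak put the apparent half-life of the HES1 count at 17.9 min (16.0 to 20.4 at 95%, from 7 libraries, r squared 0.989) with the fit stopped at 10% of the peak. For HEY1 it gave 46.4 min (40.9 to 53.7, 10 libraries, 100 to 190 min, r squared 0.973) when the fit stopped at 25% of the peak, a stop that left too few libraries for HES1. With the stop at 10%, which HEY1 did not reach by 400 min, the HEY1 fit gave 122 min (100 to 155, 31 libraries) with a poorer r squared of 0.758, since the counts levelled off after 240 min. These rates describe the fall of the mRNA count, in which new synthesis and decay are not separated.

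HES4 and HEY2 were expressed at a low level and rose slowly. HES4 (ENSG00000188290.10, chr1:998962-1000172, minus strand) had 14.5 to 27.0 counts in the 7 libraries from 0 to 60 min and 29.6 to 69.3 in all later ones. This split follows the values themselves, so the separation is a description with no test. Its highest values were 67.5 and 69.3 at 230 and 240 min, next to 30.4 at 220 min, and it had 35.3 at 400 min. The log2 change passed the threshold only at 240 min (1.19 ± 0.33, adjusted p = 0.0024, edgeR), and was short of it at 180 min (0.99 ± 0.34, adjusted p = 0.018) and 400 min (0.82 ± 0.37, adjusted p = 0.055). The call at 240 min was lost when the curve was carried back without the 0 min library (2.22 ± 0.92, adjusted p = 0.088). Other alternatives gained calls, at 180 min with evenly spaced knots, windows of time and against 10 min without the 0 min library (adjusted p 0.0029, 0.0016 and 0.0032), at 120 min with evenly spaced knots (adjusted p = 0.0020) and at 400 min with windows (adjusted p = 0.0031).

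HEY2 (ENSG00000135547.8, chr6:125747664-125761269, plus strand) had 8.30 counts at 0 min, its lowest value, and 12.4 at 10 min. It had 12.2 to 15.7 from 20 to 40 min, 18.7 to 27.4 from 50 to 100 min, 20.4 at 110 min and 31.4 to 37.5 from 120 to 140 min. Later libraries scattered between 16.8 and 35.3, and the 400 min library, at 35.3, stood well above the 16.8 of the 390 min library. The log2 change was called from 120 min on, with 1.61 ± 0.40 (120 min), 1.85 ± 0.39 (180 min), 1.59 ± 0.39 (240 min) and 1.36 ± 0.43 (400 min; edgeR, adjusted p 0.0062 or less for each). The 0 min library, with 8 raw counts, weighs on all 4 calls. Without it and with the curve carried back, none of the 4 was called (adjusted p 0.39 or more). Against 10 min only the change at 180 min was (1.30 ± 0.38, adjusted p = 0.0047). The change at 400 min was also short of the threshold with spike-in size factors (adjusted p = 0.027), with no filter (adjusted p = 0.013), with DESeq2 (adjusted p = 0.017) and without the 4 libraries farthest from the curves (adjusted p = 0.011), and that at 120 min with spike-in size factors (adjusted p = 0.026). HEYL (ENSG00000163909.7, chr1:39623435-39639643, minus strand) had 3 raw counts in all 41 libraries together, 1 each at 130, 170 and 210 min, and was not tested.

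**Figure D1:**
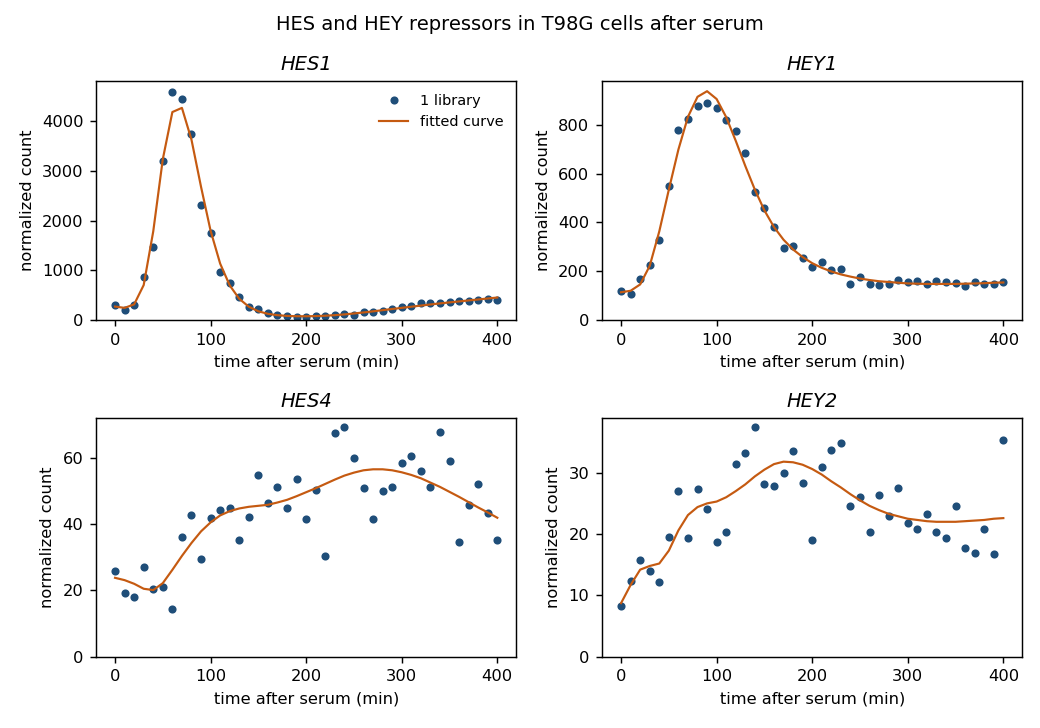
Normalized count (vertical axis, linear, from 0) against time after serum in min for HES1, HEY1, HES4 and HEY2. Each point is 1 library and the line is the fitted spline. HES1 peaks at 4586 (60 min) and drops to 58.9 (190 min), HEY1 peaks at 890 (90 min) and levels off, and HES4 and HEY2 stay below 70 and 38 counts with a wide scatter.

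JAG1 (ENSG00000101384.12, chr20:10637684-10673999, minus strand), a transmembrane ligand of Notch receptors, rose for nearly 4 h. Its counts were 1233 (0 min), 1303 (10 min), 1836 (30 min), 4214 (60 min), 6607 (120 min) and 9030 (180 min). They peaked at 10131 in the 230 min library and then drifted down, through 8550 (300 min), to 6078 in the last, still above every library of the first 100 min. The log2 change was called throughout, with 0.56 ± 0.08 (30 min), 1.71 ± 0.07 (60 min), 2.44 ± 0.08 (120 min), 2.87 ± 0.08 (180 min), 2.93 ± 0.08 (240 min) and 2.25 ± 0.08 (400 min; edgeR, adjusted p 1.8e-06 or less for each). At 400 min it was lower than at 180 min (-0.63 ± 0.04, adjusted p = 3.9e-19). The midpoint of the rise was passed at 89.3 min, after HES1 and HEY1, and the apparent half-life after the peak was 236 min (208 to 274, 17 libraries). The call at 30 min was lost with spike-in size factors (0.43 ± 0.23, adjusted p = 0.71) and without the 0 min library when the curve was carried back (adjusted p = 0.20).

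NOTCH2 (ENSG00000134250.19, chr1:119911553-120100779, minus strand) was the most abundant of the receptors and rose late. Its counts were 4409 (0 min), 4057 to 4112 (50 to 70 min), 4594 (120 min) and 6314 (180 min). They reached 7332 by 240 min and were highest, at 8686, in the last library, and the running mean had no turning point. The log2 change was 0.10 ± 0.05 at 120 min and missed the threshold (adjusted p = 0.15), and was called from 180 min on, with 0.47 ± 0.05 (180 min), 0.73 ± 0.05 (240 min) and 0.98 ± 0.06 (400 min; edgeR, adjusted p 4.2e-10 or less for these 3). With spike-in size factors the change at 180 min was not called (0.57 ± 0.21, adjusted p = 0.047). The curve was also higher at 400 min than at 180 min (0.51 ± 0.03, adjusted p = 2.2e-19). Reads shared with near-identical copies were counted for each copy. The partial copy NOTCH2NLA held 23.5% of the NOTCH2 count (r = 0.87 over 41 libraries), so the share of NOTCH2 itself is uncertain.

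NOTCH1 and NOTCH3 were low, and neither passed the threshold at any of the times compared. NOTCH1 (ENSG00000148400.10, chr9:136494433-136546048, minus strand) had 47.7 to 79.9 counts from 0 to 60 min, the 0 min library near the low end. It had 82.5 to 109 from 240 to 280 min, above all libraries of the first 70 min. The 80 and 110 min libraries, at 104 and 90.6, lay within that range. The highest value was 115 (320 min) and the last one 64.7. The log2 change was 0.73 ± 0.24 for 240 min (edgeR, adjusted p = 0.010, just over the threshold) and 0.49 ± 0.26 for 400 min. With DESeq2 the change at 240 min was called (0.73, adjusted p = 0.0079), as it was without the 4 libraries farthest from the curves (0.85, adjusted p = 0.0025). NOTCH3 (ENSG00000074181.8, chr19:15159038-15200995, minus strand) had 18.3 to 31.4 counts from 0 to 40 min and 3.94 to 12.7 from 350 to 400 min. These stretches were picked from the values, and the 50 min library, at 12, already lay inside the late range. The fitted change at 400 min, -1.19 ± 0.48, missed the threshold (edgeR, adjusted p = 0.033). It was called with evenly spaced knots (-1.63, adjusted p = 0.0037) and with windows of time (-1.32, adjusted p = 0.0018).

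**Figure D2:**
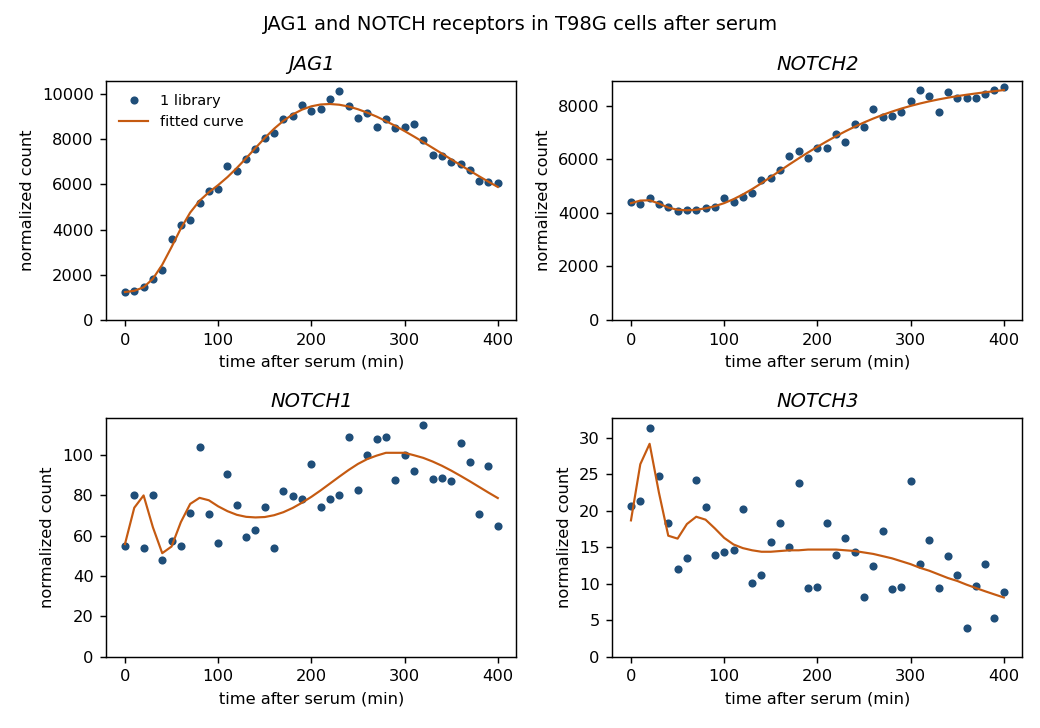
Normalized count (vertical axis, linear, from 0) against time after serum in min for JAG1, NOTCH2, NOTCH1 and NOTCH3, with 1 point per library and the fitted spline as a line. JAG1 peaks at 10131 (230 min), NOTCH2 climbs to 8686 in the last library, and NOTCH1 and NOTCH3 stay at or below 115 and 31.4 counts.

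**Figure D3:**
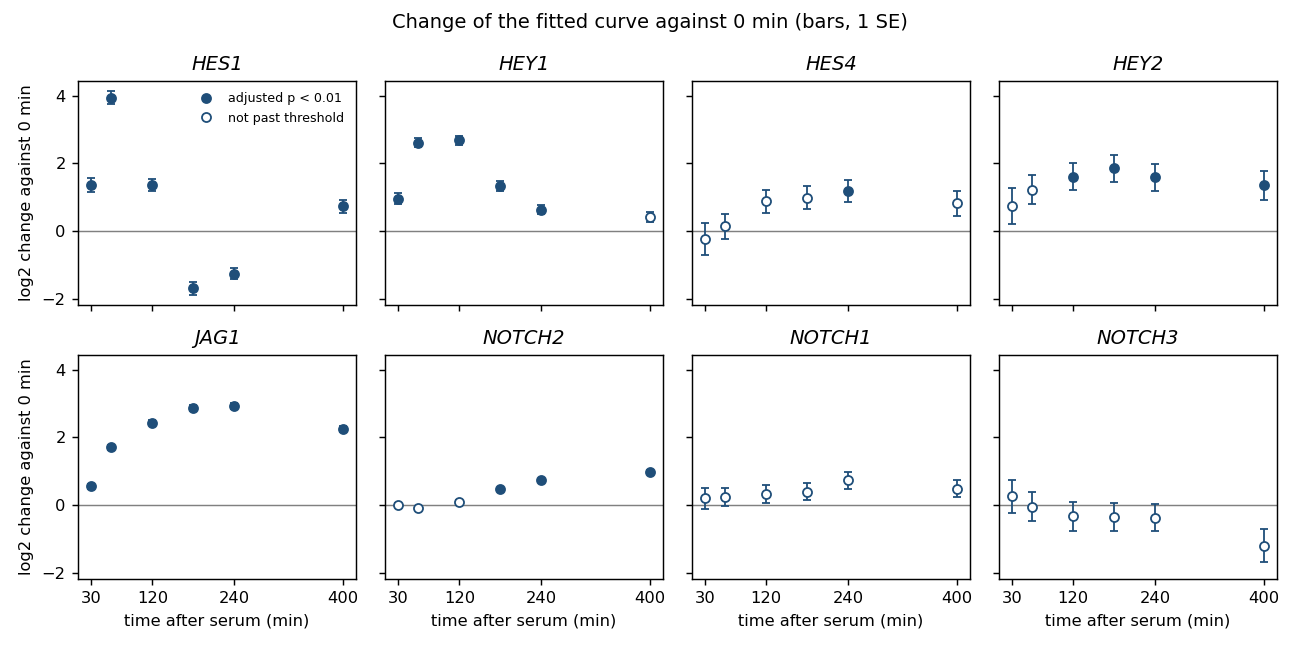
Fitted log2 change against 0 min (vertical axis, the same for all panels) at 30, 60, 120, 180, 240 and 400 min for the 8 members tested. Bars are 1 SE, filled points passed an adjusted p of 0.01 and open points did not. HES1 is the only member with called changes on both sides of 0, at 3.94 (60 min) and -1.25 (240 min). The HES1 call at 240 min was lost with the curve carried back without the 0 min library, with evenly spaced knots and with windows of time. The HES1 point at 180 min (-1.69) is a description, because that time was chosen with the low of HES1 known, and 240 min lies in the same low.

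Counts per kb of exon allow levels to be compared between genes. At 60 min HES1 had 2227 normalized counts per kb, JAG1 453, NOTCH2 246 and HEY1 142, while HES4, HEY2, NOTCH1 and NOTCH3 had 13.0, 10.0, 4.39 and 1.43. At 190 min the order had changed, with 1024 for JAG1, 361 for NOTCH2, 48.0 for HES4, 46.4 for HEY1 and 28.6 for HES1. At 400 min JAG1 had 654, NOTCH2 519, HES1 199, HES4 31.6, HEY1 28.2, HEY2 13.1, NOTCH1 5.16 and NOTCH3 0.938. HES4 and HEY1 were neighbours in this order at 190 and 400 min, and with 1 library a time their order was not tested. For HEY1 the annotated exons cover the whole gene span of 5.49 kb, so its value per kb is a low estimate if most of its RNA is spliced.

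The rest of the pathway was read from a list of 59 other genes, of which 51 were tested. At 60 min, 6 were called higher and 0 lower, at 180 min 12 were higher and 9 lower, and at 400 min 12 were higher and 19 lower. The shares of all genes called higher and lower were 5.15% and 1.23% (60 min), 18.0% and 13.6% (180 min), and 24.2% and 22.4% (400 min). The median log2 change of the list was 0.05, -0.04 and -0.15 at these times, against 0.01, 0.00 and -0.00 over all genes.

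Among the ligands, DLL1 moved opposite to JAG1. Its counts were 164 (0 min), 188 (30 min), 39.2 (180 min), 36.2 (220 min) and 48.0 (400 min). The log2 change was -1.88 ± 0.19 at 180 min and -1.46 ± 0.21 at 400 min (edgeR, adjusted p 7.5e-08 or less). Every library from 90 min on lay below every earlier one, a split that follows the values and is a description. JAG2 was scarce, with 3.92 counts at 400 min, against 17.6 at 0 min (-2.98 ± 0.58, adjusted p = 2.3e-05). DLL3, DLL4 and DLK1 were below the filter.

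LFNG, a glycosyltransferase that modifies Notch receptors and alters their response to ligands, had the largest change of the list. It stayed at 160 to 226 counts from 0 to 40 min, reached 816 by 60 min and 2378 by 110 min, and was back at 153 in the last library. The log2 change was 2.43 ± 0.17 at 60 min (edgeR, adjusted p = 6.6e-15), 3.81 ± 0.18 at 120 min (1.7e-21) and -0.09 ± 0.19 at 400 min (0.71). None of the 6 gamma-secretase genes was higher at any time compared, where 1.71% (30 min) to 24.2% (400 min) of all genes were. From 180 min on, 2 of the 6, NCSTN and APH1B, were lower (13.6% of all genes at 180 min and 22.4% at 400 min). Of the 7 genes of the nuclear complex, only SNW1 was higher at 400 min and 5 were lower (24.2% and 22.4% of all genes), among them the Mastermind genes MAML1, MAML2 and MAML3 (MAML3, 8.82 counts at 400 min, against 35.3 at 0 min, log2 change -2.11 ± 0.41, adjusted p = 1.8e-05). RBPJ was not called at any time compared.

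Among 11 corepressors, SPEN, which acts with RBPJ when Notch is off, had 1919 counts at 180 min, against 395 at 0 min (2.38 ± 0.10, adjusted p = 1.0e-24). TLE3, a Groucho protein that HES repressors recruit, was higher by 1.44 ± 0.15 at 180 min (edgeR, adjusted p = 2.5e-11), and TLE2 was lower at 400 min (-1.06 ± 0.24, adjusted p = 2.2e-04). Of 8 tested genes of receptor turnover and feedback, 5 were lower and 2 higher at 400 min (22.4% and 24.2% of all genes). The higher ones were ITCH (0.91 ± 0.09, edgeR, adjusted p = 2.3e-12) and FBXW7 (0.48 ± 0.09, adjusted p = 5.2e-06). The lower ones included NUMB and NUMBL, which encode Notch inhibitors (NUMBL, -1.51 ± 0.12, adjusted p = 2.3e-14). The rest of the lower ones were the Deltex genes DTX2 (-1.05 ± 0.18, adjusted p = 2.6e-06), DTX3 and DTX4 (-1.12 ± 0.18, adjusted p = 9.5e-07). Of 4 other helix-loop-helix repressors tested, 3 were higher at 180 min, as were 18.0% of all genes. BHLHE40, which represses clock and metabolic genes, had 10744 counts at 60 min, against 1454 at 0 min (3.02 ± 0.11, adjusted p = 9.3e-26), and BHLHE41 had 478 at 180 min, against 92.3 at 0 min (2.42 ± 0.14, adjusted p = 2.2e-19). HES6 was higher from 120 min on, and HES5 and HELT had no count in any library.

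**Figure D4:**
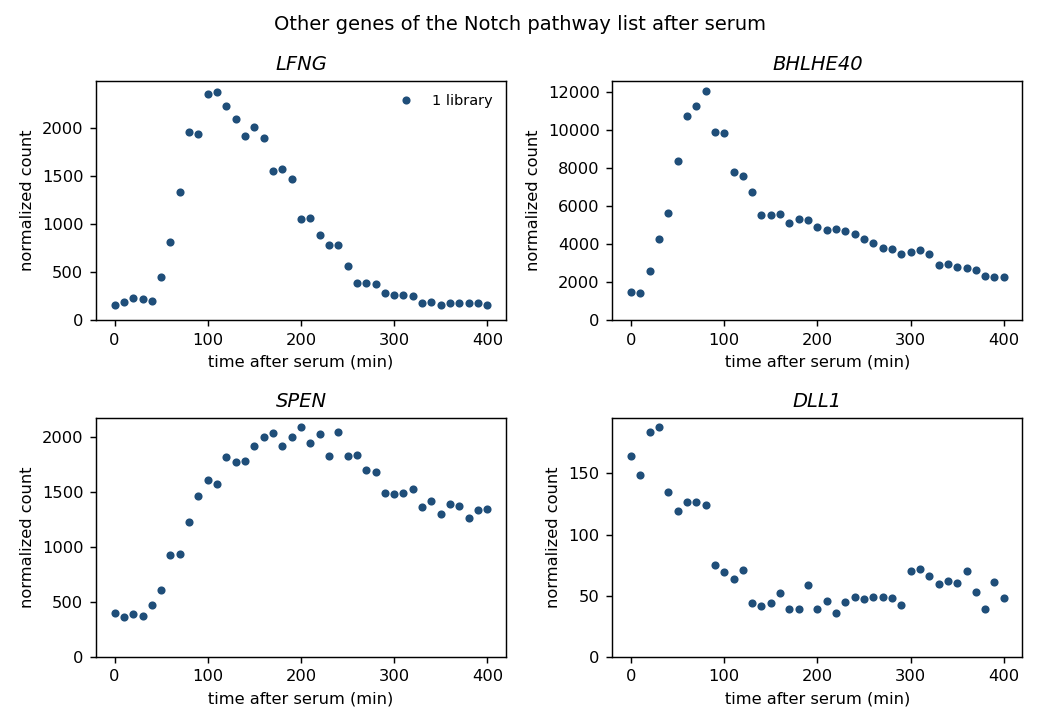
Normalized count (vertical axis, linear, from 0) against time after serum in min for LFNG, BHLHE40, SPEN and DLL1, 1 point per library. LFNG and BHLHE40 peak at 2378 (110 min) and 12059 (80 min), SPEN is highest at 2089 (200 min), and DLL1 drops to 36.2 (220 min).

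The study asked how lncRNAs move with the protein-coding genes beside them. It assembled its lncRNAs from its own reads and measured both kinds of gene by introns near their start. Here annotated lncRNAs and counts per gene were used, so the values below do not repeat its comparison of timing. No annotated lncRNA within 100 kb of the start of HES1, HEY1, HEY2, HEYL, NOTCH2 or NOTCH3 passed the filter. LINC02924, which starts at -4.95 kb from the start of HES1, had at most 10 raw counts in a library. Near HES4, 5 passed it. LINC02593 starts 79.2 kb away on the same strand. It had 634 counts at its peak, 240 min, against 201 at 0 min (log2 change 1.54 ± 0.12, edgeR, adjusted p = 6.4e-15), and correlated with HES4 at r = 0.79 over the 41 libraries. HES4 was also highest in the 240 min library, but with spike-in size factors at 230 min. The fitted curve of HES4 was highest at 270 and 280 min (56.5), so a shared peak time was not shown. The other 4 lncRNAs had r between -0.36 and 0.14 to HES4. The nearest of them, ENSG00000272512, 2.12 kb away, was not called (r = -0.09), and ENSG00000242590 was higher at 60 min (0.85 ± 0.20, adjusted p = 0.0029) and at 240 min (0.73 ± 0.20, adjusted p = 0.0016, r = 0.14). Near JAG1, ENSG00000270792 and LINC01752 (r = 0.13 and 0.58) were not called against 0 min. C9orf163, near NOTCH1, was not either (r = 0.27). NALT1 starts at -0.164 kb from the start of NOTCH1, upstream of it, on the opposite strand, and fell. It had 2.94 counts at 400 min, against 37.3 at 0 min (-2.96 ± 0.44, adjusted p = 1.7e-07), with r = -0.39 to NOTCH1. Neighbouring libraries of a time course are alike, so these correlations are descriptions.

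Across the members themselves, Pearson's r of log2 counts over the 41 libraries was 0.62 between HEY1 and HES1, 0.78 between JAG1 and HES4 and 0.74 between JAG1 and HEY2. It was -0.73 between NOTCH2 and HEY1. Over the 11141 protein-coding genes whose mean count reached 100, the profiles most like HES1 included those of ADM (r = 0.928) and TIPARP (0.904). ADM, a vasodilator peptide, had 4468 counts at 190 min, against 4103 at 0 min, and TIPARP had 4936, against 5881. Most like HEY1 were SNAI2 (0.983), ID2 (0.971) and SERTAD1 (0.969), which peaked at 100, 80 and 80 min. SNAI2 encodes a zinc-finger repressor, and ID2 encodes a helix-loop-helix protein that has no DNA-binding region. Most like JAG1 were LBH (0.992), RELT (0.989) and GADD45A (0.984), with peaks at 240, 240 and 250 min. Those most like HES4, FSCN1 (0.897), ZNF316 (0.882) and TNFAIP2 (0.880), all had their highest count in the 300 min library, whose counts scattered most about the curves (a median residual of 0.130 over genes, without regard to sign). HES4 itself had 58.5 counts there, inside its late range.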

How the data were processed

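Total RNA of T98G cells was sequenced at 41 time points, 1 library each. The authors trimmed reads with cutadapt 1.11, aligned them to GRCh38 with STAR 2.5.2a and deposited counts per gene from featureCounts, by strand, with multi-mapping reads counted for each gene. The deposited signal values are these counts divided by DESeq2 1.24.0 size factors. The raw counts deposited for each library alone and for all libraries together were identical for the 41 libraries. Symbols, positions and exon lengths came from GENCODE 44 (58207 genes matched, 99.2%), promoters from RefSeq.

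Genes with over 10 counts in 1 library and over 2 in 3 consecutive ones were fitted in edgeR 4.0.16 (quasi-likelihood, R 4.3.3) as a natural spline of time (7 terms, inner knots 20, 40, 60, 100, 160 and 260 min). Size factors were medians of ratios, and the fit left 33 residual degrees of freedom. Of these steps, only the spline fit was tested on simulated data, and only for the change at 60 min against 0 min. Turning points needed a departure of 0.5 in log2(count + 1). Pathway genes were named if called at 60, 180 or 400 min with a log2 change of at least 1, lncRNAs within 100 kb, and 3 genes most like each of HES1, HES4, HEY1 and JAG1 by Pearson's r. HEYL, which the same rule covers, had too few counts, and 1 gene that the rule names is not reported here. Members, lists, contrasts and this rule were chosen with earlier results of these data known. Alternatives changed the size factors (TMM, spike-ins), the filter, the test (DESeq2 1.42.0, windows of time), the knots, the degrees of freedom and the libraries. Plots used matplotlib 3.10.9.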

Additional observations from a re-analysis of the deposited data

How the results depend on the processing

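Of 552 changes of single members recomputed under 10 alternatives, 485 kept their direction and their side of the threshold, 30 lost the call, 14 gained it and 23 turned their sign. Of these 23, 22 were called in neither fit. Without the 0 min library and with the curve carried back, the log2 change was 0.06 for HES1 at 240 min, 0.99 for HES4 at 30 min, -0.11 and -0.04 for NOTCH1 at 30 and 60 min, and 0.62, 0.35, 0.34 and 0.33 for NOTCH3 at 60, 120, 180 and 240 min. Without that library but against 10 min it was 0.37 for HES4 at 30 min, and -0.25, -0.18, -0.11 and -0.04 for NOTCH1 at 30, 60, 120 and 180 min. With windows of time it was -0.13 and -0.11 for NOTCH1 at 30 and 60 min. With evenly spaced knots it was 0.02 for HES4 and -0.08 for NOTCH3 at 30 min. NOTCH2 at 30 min, at -0.00 as reported, was 0.09 when the curve was carried back, 0.02 against 10 min and 0.00 with windows, and NOTCH3 at 60 min was 0.00 without the 4 libraries farthest from the curves. For HES4 at 60 min it was -0.10 with spike-in size factors and -0.02 with 9 degrees of freedom. TMM size factors changed none. With spike-in size factors, 0 members were higher at 30 min and 2 at 400 min. Without the 0 min library and with the curve carried back, 1 was higher at 30 min and 3 at 240 min, and 0 were lower at 180 and 240 min. With evenly spaced knots, and also with windows of time, 0 were lower at 180 and 240 min and 1 at 400 min. The cause was not tested. All other counts of members stayed within 1.5 times the value reported, including the 8 called over the whole course. The high of HEY2 moved to 220 min with spike-in size factors, and that of JAG1 to 210 min with a running mean of 5 libraries. Under 50 counts, as for HEY2 and NOTCH3, single libraries scatter too widely for small changes to be seen. Each time point is 1 library, so p-values measure only the spread about the curve, which may be technical. No paired analysis was possible because each group has 1 sample.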
